A study of Rattus norvegicus with 10 samples.

Results

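Activity-induced feedback regulators are genes that neurons switch on within minutes of synaptic stimulation and whose products then damp or redirect the response. They were measured here in the prefrontal cortex of 10 rats. Of 7 gene symbols, Dusp1, Dusp6, Sik1, Ier2, Klf2 and Klf4 were each the single symbol of at least 1 probe set in the platform annotation, and Btg2, which had no such probe set, has no expression value here. These 6 genes had 14 of the 31042 probe sets that were not array controls, and 6 of the 14, from Dusp1, Dusp6, Sik1 and Klf2, were in the brighter 50% that entered the tests. A probe set is the group of short probes that reports 1 transcript, and its value is on a log2 scale, on which a step of 1 is a doubling.

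All rats were untreated males of the inbred Lewis strain, weighing 200-250g, and came from a set of 40 that took tests of sugar feeding, locomotion, acoustic startle and prepulse inhibition. The series asks how brain mRNA levels relate to behaviour among animals of 1 strain. The rats were killed in random order 6 days after the last test, and frontal areas Fr1 and Fr2 were dissected without the olfactory bulb, with 1 array per rat. The rats form 1 group with no control, and each score is a number on a rat; 7 rats also had a plus maze score. Units of the scores and the ages of the rats are not given in the sources used here.

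Neuronal activity raises calcium and cAMP and activates the ERK branch of the MAP kinase pathway. These signals reach CREB and serum response factor, which start transcription of immediate-early genes such as Fos, Arc and Egr1 without new protein synthesis. The same signals induce inhibitors: dual-specificity phosphatases remove phosphate from MAP kinases, and the salt-inducible kinase SIK1 keeps CREB coactivators out of the nucleus. The Krüppel-like factors KLF2 and KLF4 are zinc finger transcription factors that are also known from the endothelium of blood vessels.

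The promoters of Dusp1, Ier2, Sik1 and Klf4 are shown because 3 of these genes had correlations of 0.84 to 0.98 with the activity-induced gene Arc across the rats, while Sik1 had 0.64. Each window runs from 250 bases before to 50 bases after the annotated start of the gene, 5′ to 3′ on the gene's own strand, from RefSeq on the GRCr8 assembly. Capitals mark the half-site of the cAMP response element, TGACG, on either strand. The windows lie at chr10:17184603-17184902 (Dusp1, plus strand), chr19:40399123-40399422 (Ier2, plus strand), chr20:9958597-9958896 (Sik1, minus strand) and chr5:75078543-75078842 (Klf4, minus strand).
Dusp1: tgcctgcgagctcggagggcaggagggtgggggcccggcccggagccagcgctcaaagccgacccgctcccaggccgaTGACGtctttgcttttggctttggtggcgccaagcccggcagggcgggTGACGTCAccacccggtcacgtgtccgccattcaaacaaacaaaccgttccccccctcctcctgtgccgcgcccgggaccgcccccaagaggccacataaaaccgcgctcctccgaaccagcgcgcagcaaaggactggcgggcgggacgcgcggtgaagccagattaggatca
Ier2: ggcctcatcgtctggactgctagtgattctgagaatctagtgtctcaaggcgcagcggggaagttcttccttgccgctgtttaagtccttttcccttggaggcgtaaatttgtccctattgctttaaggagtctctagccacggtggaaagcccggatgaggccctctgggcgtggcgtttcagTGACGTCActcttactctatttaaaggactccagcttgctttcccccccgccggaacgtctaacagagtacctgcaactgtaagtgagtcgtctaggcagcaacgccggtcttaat
Sik1: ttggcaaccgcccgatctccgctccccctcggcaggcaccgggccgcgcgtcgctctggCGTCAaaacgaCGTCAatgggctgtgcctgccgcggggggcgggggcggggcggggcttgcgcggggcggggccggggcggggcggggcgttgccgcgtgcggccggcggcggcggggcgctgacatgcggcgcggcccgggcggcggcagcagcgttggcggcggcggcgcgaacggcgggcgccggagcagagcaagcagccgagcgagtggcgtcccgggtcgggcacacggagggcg
Klf4: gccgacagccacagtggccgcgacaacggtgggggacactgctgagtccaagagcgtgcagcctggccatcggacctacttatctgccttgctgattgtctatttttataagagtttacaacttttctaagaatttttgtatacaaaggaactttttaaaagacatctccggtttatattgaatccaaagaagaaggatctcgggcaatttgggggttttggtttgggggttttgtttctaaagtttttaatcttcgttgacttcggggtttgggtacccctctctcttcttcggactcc

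The windows of 6 of the 7 genes were searched, that of Btg2 included. Dusp1, Ier2 and Btg2 each held 1 copy of the full palindromic element TGACGTCA, at positions 127 to 134, 185 to 192 and 50 to 57 of their windows, counted from 1 at the 5′ end. The full element was present in 612 of 33469 promoters of this length, or 1.83%. Each full element overlaps 2 half-sites, one on each strand, and Dusp1 had a further half-site at positions 79 to 83. Sik1 had 2 half-sites, at positions 60 to 64 and 71 to 75, both on the minus strand of the window, and no full element. The half-site was present in 21.2% of all promoters. It was not found in the windows of Klf4 and Dusp6, and the CArG box, the sequence bound by serum response factor, was in none of the 6 windows and in 1.64% of all promoters. Klf2 was not examined for motifs. These matches describe letters in a short window and do not locate a binding site.

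Array medians lay between 3.91 and 4.02 log2, with 8.13 to 8.25 as the upper quartile. Across probe sets, which are not independent replicates, any 2 arrays correlated at 0.996 to 0.999. The precision is limited by the number of arrays. Of the excitatory cortical neuron markers, 9 of 9 with a probe set were bright enough to be tested. Striatal projection neuron markers differed between the pieces of tissue: their mean level was 1.54 log2 above the mean of all rats in rat 7, 0.97 above it in rat 4 and 0.53 above it in rat 10. In rat 10 Fos stood apart at 4.91 log2, against 7.42 to 9.66 in the other rats. In tissue samples such as these, fewer cells of a type and less RNA per cell cannot be told apart.

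The phosphatase genes come first. Dusp1 encodes a nuclear phosphatase, also called MKP-1, that inactivates p38, JNK and ERK. Its bright probe set ranged from 8.70 log2 in rat 1 through a median of 9.33 to 10.65 in rat 3, a 3.85-fold span (SD 0.71, n = 10). Rats 3, 8 and 4 held the 3 highest values, at 10.65, 10.52 and 10.18, and the next rat, rat 2, had 9.65. Among all tested probe sets the median SD was 0.13 and the 90th percentile 0.29. The second Dusp1 probe set, whose mean of 3.92 fell just under the filter level of 3.99, had its highest values in rats 4, 8 and 3, at 4.69, 4.40 and 4.32, and stayed between 3.60 and 3.73 in all other rats.

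Dusp6 encodes MKP-3, a cytoplasmic phosphatase selective for ERK. It had 3 bright probe sets with a narrower spread: the brightest ran from 10.77 log2 in rat 1 through a median of 11.07 to 11.58 in rat 3 (SD 0.26, n = 10), a 1.75-fold span. The other 2 spanned 1.65-fold and 1.83-fold. Across rats the 3 probe sets correlated with each other at r = 0.73 to 0.87 (n = 10, a description, since all were read from the same arrays). Rat 3 was highest on the brightest probe set, rat 8 on the second and rat 4 on the third, so the same 3 rats supplied the maximum on each.

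Sik1 encodes salt-inducible kinase 1, which phosphorylates CREB coactivators and is itself a CREB target. Its tested probe set ran from 5.96 log2 in rat 10 through a median of 6.21 to 6.58 in rat 3, a 1.54-fold span (SD 0.16, n = 10). Rat 3 was above all others, the next highest being rat 4 at 6.28. Without rat 3 the remaining values lay within 5.96 and 6.28. A second Sik1 probe set lay at 1.80 to 1.86 in all rats and carried no visible variation.

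Ier2, a small immediate-early gene whose product acts in the nucleus, had a single probe set with a mean of 3.67 log2, below the filter level. It ran from 3.07 in rat 1 through a median of 3.41 to 5.16 in rat 8, a 4.26-fold span (SD 0.63, n = 10). Rats 8, 3 and 4 had 5.16, 4.19 and 4.08, and all other rats lay between 3.07 and 3.45.

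Klf2 had the largest SD. Its tested probe set ran from 3.03 log2 in rat 1 through a median of 4.08 to 6.75 in rat 8, a 13.2-fold span (SD 1.38, n = 10), and its SD was at the 99.9th percentile of the tested probe sets. Rats 8, 3, 4 and 9 had 6.75, 5.99, 5.59 and 5.03, and rats 1, 10, 6 and 5 lay together at 3.03 to 3.17. These low values, like the 3.97 of rat 7, were under the filter level of 3.99, in the range of the dim Ier2 and Klf4 values, so the low end and the fold span are uncertain. The 4 other Klf2 probe sets were dim. Of these, 1 was highest in rats 4 and 8, at 3.27 and 3.14, against at most 2.48 elsewhere, and the remaining 3 spanned 1.03-fold to 1.17-fold.

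Klf4 had a single probe set, with a mean of 3.38 log2, below the filter level. It ran from 2.91 in rat 6 through a median of 3.06 to 4.55 in rat 3, a 3.12-fold span (SD 0.55, n = 10). Rats 3, 8, 4 and 9 had 4.55, 4.01, 3.64 and 3.58, and the 6 other rats lay between 2.91 and 3.07. These are the same 4 rats that were highest for Klf2. Taking the brightest probe set of each gene, rats 3 and 4 were among the 3 highest rats for 6 of 6 genes and rat 8 for 4 of 6, while rat 10 was among the 3 lowest for 5 of 6.

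**Figure D1:**
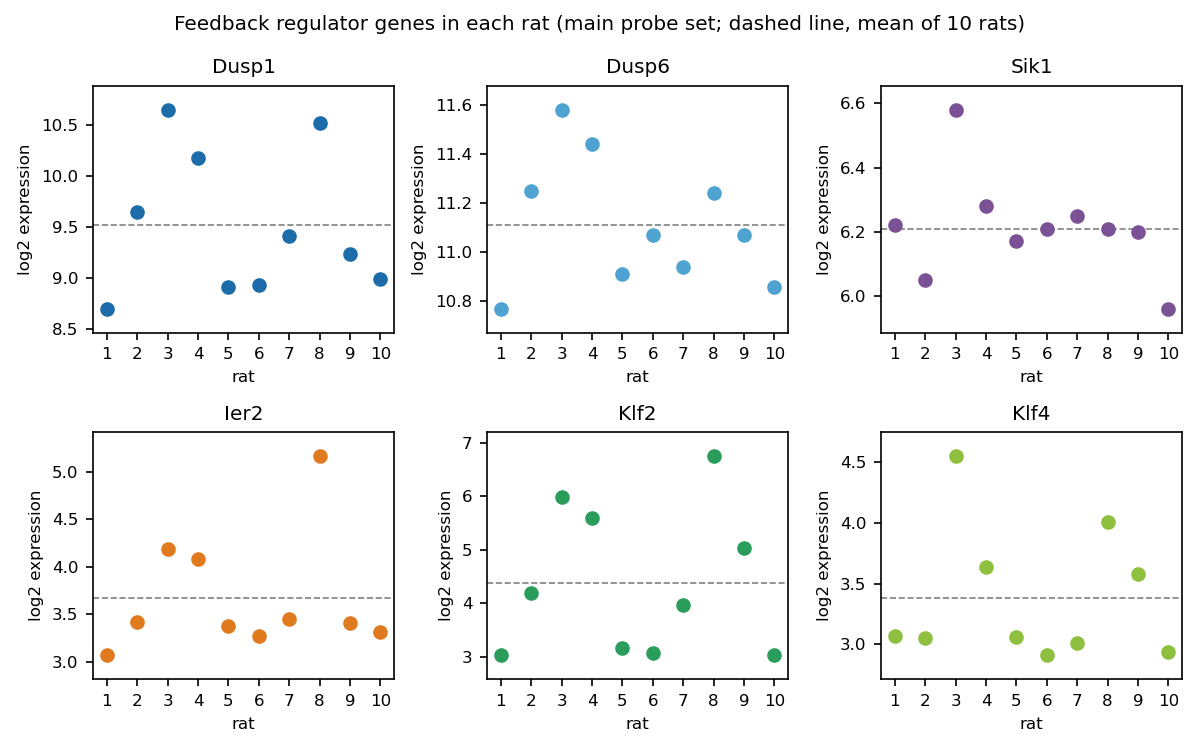
Log2 expression of the brightest probe set of each of the 6 genes (vertical axes, on separate scales) in rats 1 to 10 (horizontal axis), 1 point per rat, with the mean of 10 rats as a dashed line. Rats 3 and 4 lie above the mean in all 6 panels and rat 8 lies above it for the other genes but at 6.21, level with the mean, for Sik1, where rat 3 is highest at 6.58.

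Many of the 6 genes correlated with each other. For 15 of 15 pairs Pearson's r across the 10 rats was positive, with a median of 0.79 and a range of 0.39 to 0.93, and 9 pairs passed an adjusted permutation p of 0.05. Adjustment here and in what follows ran over the 63 correlations computed, 15 pairs of these genes and 48 pairs of a gene with another measure, two-sided. The 15 pairs share 6 genes and the same rats, so they are not 15 separate results. Over all tested probe sets, the median r with each of the 6 genes was -0.20 to -0.06. The 99th percentile of those r was 0.62 to 0.72. For Klf2 and Dusp1 r was 0.93 (permutation p = 0.0003, adjusted 0.00472). By ranks rho was 0.90 (permutation p = 0.00088, adjusted 0.00924). Without rats 3 and 8, the farthest from the median of Dusp1, r was 0.86 (permutation p = 0.00645). For Ier2 and Klf2 r was 0.90 (permutation p = 3e-05, adjusted 0.000945). By ranks rho was 0.94 (permutation p = 0.00029, adjusted 0.00609), and leaving out rats 3 and 8 gave r = 0.82.

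Between the 2 phosphatase genes r was 0.89 (permutation p = 0.0007, adjusted 0.00735). Their rho was 0.85 (permutation p = 0.00311, adjusted 0.0196), and leaving out rats 3 and 8 gave r = 0.90. Between the 2 Krüppel-like factors r was 0.88 (permutation p = 0.00099, adjusted 0.0078). Their rho of 0.76 did not pass (permutation p = 0.0145, adjusted 0.0625), and leaving out the same rats gave r = 0.90. For Dusp1 and Ier2 r was 0.88 (permutation p = 0.00061, adjusted 0.00735). Here rho was higher, at 0.94 (permutation p = 0.00023, adjusted 0.00609), and leaving out those rats gave r = 0.91.

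Sik1 took part in the 4 pairs of lowest r. Its r with the 5 others ran from 0.39 with Ier2 to 0.76 with Klf4, and only the pair with Klf4 passed (permutation p = 0.0113, adjusted 0.0477, with rho = 0.48, permutation p = 0.165, adjusted 0.401). Leaving out rats 3 and 10 lowered r to 0.30, so the relation rested on those samples. With Dusp6 the r of Sik1 was 0.63 (permutation p = 0.0473, adjusted 0.142). There rho was 0.43 (permutation p = 0.215, adjusted 0.475), and leaving out rats 3 and 4 gave r = -0.002. By rho 5 of 15 pairs passed, and 5 passed when the 2 farthest rats were left out of each pair.

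Arc, the activity-regulated cytoskeleton gene, stands outside the 6 genes and was taken as a marker of activity-dependent transcription. Neuronal activity itself was not measured, and what the Arc level reflects in each rat was not tested. Arc ran from 8.44 log2 in rat 6 to 11.18 in rat 3 (SD 0.93, n = 10), with rats 3, 8 and 4 highest at 11.18, 10.83 and 10.30. A linear model of every tested probe set on Arc, scaled to an SD of 1, was fitted with limma, and 4 of 15520 probe sets passed a Benjamini-Hochberg adjusted p of 0.05, or 0.0258% of them. Of the 4 tested genes among the feedback regulators, 2 were in that set, Dusp1 and Klf2, both with positive slopes. Klf2 reached the tested probe sets through rats that were high for both Klf2 and Arc. In the fit over all probe sets Klf2 did not pass (limma adjusted p = 0.207). The other 2 probe sets called were Nr4a1 and Junb, an orphan nuclear receptor gene and an AP-1 gene, both on the list of other activity-induced genes.

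Dusp1 had the smallest p of all 15520 probe sets, with a slope of 0.69 ± 0.05 log2 per SD of Arc (SE, n = 10; limma adjusted p = 0.00106), or 1.61-fold. Its r with Arc was 0.98 (permutation p = 2e-05, adjusted 0.000945). The rank correlation, rho, was 0.90 (permutation p = 0.0007, adjusted 0.00924). Without rats 3 and 8, the farthest from the median of Arc, r was 0.94. Dusp1 passed without each of the 10 rats in turn, with limma adjusted p of 0.000581 to 0.0278. It did not pass with ranks of Arc (limma adjusted p = 0.0557) or without both rats 3 and 8 (limma adjusted p = 0.666), where 0 probe sets passed. The slope there was 0.45 per SD of Arc in the rats kept. That SD is smaller than the SD of all 10 rats, so 0.45 and 0.69 are not on the same scale.

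Klf2 had a slope of 1.27 ± 0.16 log2 per SD of Arc (SE, n = 10; limma adjusted p = 0.0486), or 2.42-fold. The mean of 4.38 that took this probe set past the filter rested on the rats that were high for both Klf2 and Arc, and in the limma fit over all probe sets it did not pass (adjusted p = 0.207). The call was close to the threshold: the slope stayed positive in 18 of 18 alternatives but passed in 3 of them. It was 1.06 to 1.38 when single rats were left out, each per SD of Arc in the rats kept. Of these single-rat fits only that without rat 9 kept the call of Klf2 (limma adjusted p = 0.0125 to 0.306 over those 10 fits). Its r with Arc was 0.92 (permutation p = 0.00023, adjusted 0.00472). By ranks it was 0.90 (permutation p = 0.00075, adjusted 0.00924), and leaving out rats 3 and 8 gave r = 0.87.

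Dusp6 had a positive slope of 0.22 ± 0.05 that did not pass across all probe sets (SE, n = 10; limma p = 0.0012, adjusted p = 0.898), and its 2 other probe sets had 0.23 ± 0.04 and 0.17 ± 0.08. As a single correlation with Arc its r was 0.83 (permutation p = 0.00313, adjusted 0.0179). Its rho of 0.76 did not pass (permutation p = 0.0149, adjusted 0.0625), and leaving out rats 3 and 8 gave r = 0.74. Sik1 had 0.10 ± 0.04 (limma p = 0.0372, adjusted p = 0.993). Its r with Arc was 0.64 (permutation p = 0.0416, adjusted 0.131), or 0.32 without rats 3 and 8. Its rho was 0.45 (permutation p = 0.19, adjusted 0.443). The 2 genes under the filter were read from a limma fit over all 31041 probe sets, in which 2 probe sets passed, or 0.00644%. There Ier2 had a slope of 0.53 ± 0.11 (limma p = 0.00101, adjusted p = 0.762) and Klf4 0.49 ± 0.08 (limma p = 0.000223, adjusted p = 0.628). Their r with Arc was 0.84 for Ier2 (permutation p = 0.00168, adjusted 0.0117; rho = 0.94, permutation p = 0.00023, adjusted 0.00609) and 0.89 for Klf4 (permutation p = 0.00088, adjusted 0.0078; rho = 0.81, permutation p = 0.00688, adjusted 0.0361). Without rats 3 and 8 these were 0.82 and 0.66, the second with permutation p = 0.0904, so the Klf4 relation rested in part on those rats.

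**Figure D2:**
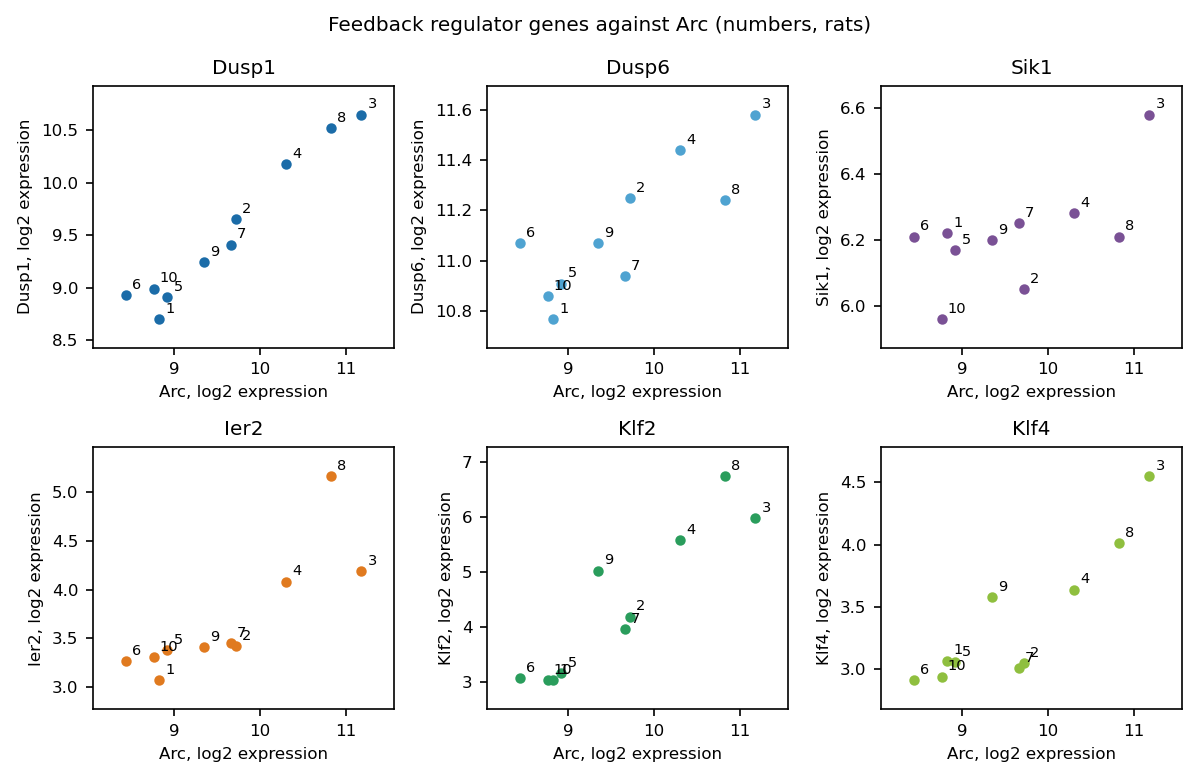
Log2 expression of each of the 6 genes (vertical axes) against that of Arc (horizontal axes) in 10 rats, each point numbered by rat. Dusp1 rises with Arc from rat 9 upward, while in rats 6, 10, 1 and 5, lowest for Arc, it lies at 8.70 to 8.99. Ier2 is raised in rats 3, 4 and 8, Klf4 in those rats and in rat 9, and Sik1 in rat 3.

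The other activity-induced genes gave the same direction: 13 of 13 tested genes had positive slopes on Arc, with a median of 0.23, against -0.02 over all tested probe sets, and 2 passed. Nr4a1 had 0.69 ± 0.06 (limma adjusted p = 0.00425) and Junb 0.65 ± 0.07 (limma adjusted p = 0.0165), while Fosb, another AP-1 gene, had 0.35 ± 0.06 and did not pass (limma adjusted p = 0.261). Counts were lower in the lists of related families, with no test of the difference between lists. Of all tested probe sets 32.5% had a positive slope on Arc. Among 9 other tested genes of ERK and MAP kinase feedback, 0 passed and 4 had positive slopes (median -0.0004). Of these Spry4, a Sprouty inhibitor of receptor tyrosine kinase signalling, had the smallest p, with 0.18 ± 0.05 (limma p = 0.00684, adjusted p = 0.993). The phosphatase genes Dusp8 and Dusp5 had -0.02 ± 0.02 and 0.02 ± 0.03.

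Among 11 other Krüppel-like factors 0 passed and 5 had positive slopes (median -0.01). Klf15 had 0.12 ± 0.05 (limma p = 0.0272, adjusted p = 0.993), Klf10 0.24 ± 0.12 and Klf16 0.06 ± 0.05. Of the 8 SIK, CRTC and CREB genes 0 passed and 2 had positive slopes, with 0.11 ± 0.06 for Crem, whose locus yields the cAMP-inducible repressor ICER, and -0.19 ± 0.14 and -0.04 ± 0.03 for the kinase genes Sik2 and Sik3. The BTG/TOB and CCR4-NOT list, which holds antiproliferative proteins and the deadenylase complex they recruit, had 0 of 10 past the threshold. In it the antiproliferative genes Tob2 and Tob1 had 0.23 ± 0.10 (limma p = 0.0457, adjusted p = 0.993) and 0.10 ± 0.06, and Cnot6l, a deadenylase subunit gene, had -0.11 ± 0.08. Of 4 MAP kinase genes, the targets of the phosphatases, 0 passed, and Mapk14, which encodes p38 alpha, had -0.03 ± 0.03. Ier5, the only other immediate early response gene tested, had 0.04 ± 0.06. Counts of 0 here are those of limma at the adjusted threshold, and 448 of 15520 probe sets had an unadjusted p under 0.05 on Arc, or 2.89%.

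The genes with the pattern most like that of each regulator were taken as the 3 of highest r among tested probe sets with 1 symbol, over 10 rats. For Dusp1 these were Nr4a1 (0.98), Arc (0.976) and Ehbp1l1 (0.947). Of 15520 probe sets 8 reached r = 0.9 with Dusp1, or 0.052%. The count was also 8 for Sik1, with 7 for Klf2, 2 each for Ier2 and Klf4, and 1 for Dusp6. For Klf2 they were a second Dusp6 probe set (0.934), Junb (0.931) and Dusp1 (0.931). For Klf4 they were Homer1, a synaptic scaffold gene (0.907), Nr4a1 (0.892) and Arc (0.886). For Ier2 they were the transcriptional repressor gene Hes1 (0.952), the nuclear receptor gene Nr4a2 (0.915) and Klf2 (0.897). Dusp6 was closest to Clint1 (0.928), Nr4a1 (0.896) and Dusp1 (0.892). Sik1 was closest to Dnajc12 (0.936), Snapc4 (0.931) and Zfp821 (0.91), none of them on the activity-induced lists. Rat 3 stood above all others for Sik1, at 6.58 log2 with the next rat at 6.28. These r were not computed without rat 3.

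The correlations with Fos were lower than with Arc for 5 of 6 genes, Sik1 being the exception at 0.65 against 0.64, and those with Egr1 were lower for 6 of 6, with the differences not tested. The order for Fos depended on the rats. The 2 rats farthest from the median of each measure were left out, rats 5 and 10 for Fos and rats 3 and 8 for Arc. Then r with Fos was 0.39 to 0.97 and r with Arc 0.32 to 0.94, and Fos had the higher value for 6 of 6 genes. These r come from different rats, so they are not a like-for-like comparison. By rho in all rats, Fos was also higher for Dusp6 (0.78 against 0.76) and Sik1 (0.54 against 0.45). With Fos, r ran from 0.55 for Ier2 to 0.72 for Klf2, and by r only Klf2 passed, while by rho Dusp1, Ier2 and Klf2 did (Klf2 permutation p = 0.011, adjusted 0.0477; rho = 0.88, permutation p = 0.00176, adjusted 0.0123). Without rats 5 and 10, the farthest from the median of Fos, r of Dusp1 with Fos was 0.97 (permutation p = 0.00053), against 0.69 in all 10 rats (permutation p = 0.0183, adjusted 0.0679; rho = 0.88, permutation p = 0.00152, adjusted 0.0123). In the limma fit on Fos 0 of 15520 probe sets passed and 427 had an unadjusted p under 0.05, or 2.75%. There Klf2 had 0.99 ± 0.30 (limma p = 0.00747, adjusted p = 1.00), Dusp1 0.49 ± 0.16, Dusp6 0.18 ± 0.06 and Sik1 0.10 ± 0.04. With Egr1, r was 0.10 to 0.40 for the 6 genes, and 0 of 6 passed. Egr1 was highest in rat 1, at 12.51 log2, and lowest in rat 10, at 11.38.

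**Figure D3:**
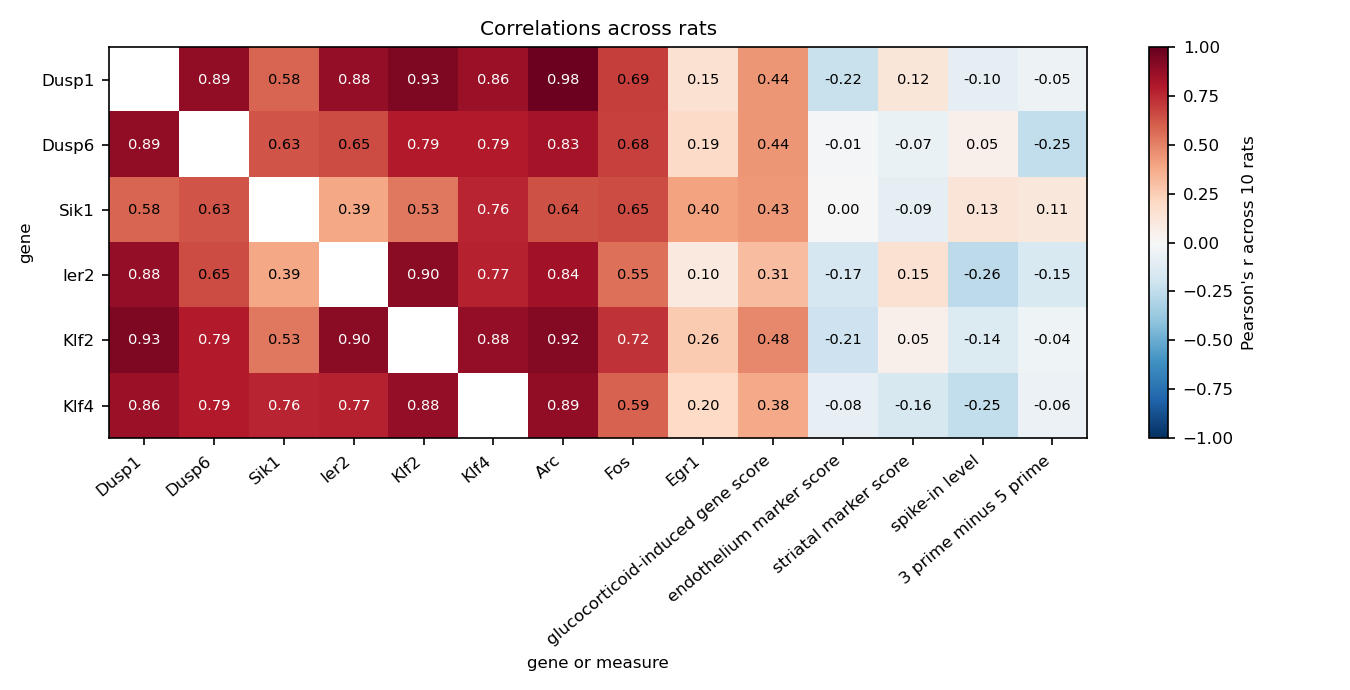
Pearson's r across 10 rats (colour scale from -1 to 1, value in each cell) between each of the 6 genes (rows) and the other genes and measures (columns), with blank cells where a gene meets itself. Values with Arc run from 0.64 to 0.98, those with Egr1 from 0.10 to 0.40, and those with the endothelium score from -0.22 to 0.00.

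Dusp1 is also induced by glucocorticoids, and Klf2 and Klf4 are expressed in vessel endothelium, so genes of both kinds were set beside them. The score of the glucocorticoid-induced genes, the mean centred log2 value of 7 tested genes, ran from -0.19 in rat 2 to 0.26 in rat 4. Rats 4 and 7, highest on this score, were also highest for the striatal markers. Of those markers 8 of 8 had positive slopes on it (median 0.48), against 44.2% of all tested probe sets. The part of striatal tissue in the score was not tested. In the fit on this score 0 of 15514 probe sets passed, with 1223, or 7.88%, at an unadjusted p under 0.05. Klf2 had a slope of 0.66 ± 0.37 on it (SE, n = 10; limma p = 0.107, adjusted p = 0.745), Dusp1 0.31 ± 0.20, Dusp6 0.11 ± 0.07 and Sik1 0.07 ± 0.05. Across rats its r with the 6 genes was 0.31 to 0.48, positive for 6 of 6, and 0.36 to 0.64 without rats 4 and 7, and 0 of 6 passed. On Arc 0 of 7 of these genes passed and 6 had positive slopes (median 0.04, against -0.02 over all tested probe sets), and Nfkbia, the NF-kappaB inhibitor gene, had the smallest p, with 0.17 ± 0.06 (limma p = 0.022, adjusted p = 0.993), then Ddit4 with 0.14 ± 0.07 and Sgk1 with 0.04 ± 0.02.

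The endothelium score, over 9 tested markers of 15 listed, ran from -0.20 in rat 7 to 0.15 in rat 1. Of the striatal markers 0 of 8 had positive slopes on it (median -0.32), against 63.2% of all tested probe sets. The tight junction gene Cldn5 was at 9.62 log2 in rat 8, its lowest value, and at 9.64 in rats 3 and 7, but at 10.08 in rat 4, and was highest in rat 6, at 10.16. On this score 1 of 15509 probe sets passed, or 0.00645%, that of the junction gene Jam2, and 1195, or 7.71%, had an unadjusted p under 0.05: Klf2 had -0.29 ± 0.42 (SE, n = 10; limma p = 0.503, adjusted p = 0.938), Dusp1 -0.16 ± 0.21, Dusp6 -0.0035 ± 0.083 and Sik1 0.0007 ± 0.053. For Klf2 the r with this score was -0.21 (permutation p = 0.558, adjusted 0.857; rho = -0.36, permutation p = 0.313, adjusted 0.582). For Klf4 it was -0.08 (permutation p = 0.807, adjusted 0.924; rho = -0.07, permutation p = 0.866, adjusted 0.957). Without rats 1 and 7 these were -0.22 and -0.26. On Arc, 0 of 9 endothelium markers passed and 2 had positive slopes, and 0 of 6 pericyte and smooth muscle markers passed, among which Myh11, a smooth muscle myosin gene, had the smallest p, with 0.31 ± 0.10 (limma p = 0.0125, adjusted p = 0.993). Markers of other cell types had slopes on Arc mostly or wholly of 1 sign in several lists, with 0 past the adjusted threshold in each list. Positive slopes numbered 0 of 11 for myelin and oligodendrocyte markers (median -0.11), 0 of 9 for astrocyte markers (median -0.07) and 1 of 6 for microglia markers (median -0.05). They numbered 6 of 6 for meninges markers (median 0.11), 7 of 8 for interneuron markers (median 0.01) and 6 of 8 for striatal markers (median 0.10). Of all tested probe sets 32.5% had a positive slope on Arc. Camk2a, an excitatory neuron kinase gene, had -0.16 ± 0.05 (limma p = 0.0108, adjusted p = 0.993), and 3 of 9 excitatory markers were positive. The part of these cell types in the Arc results was not tested beyond the use of the striatal score as a covariate. The striatal score, the spike-in level and the 3′ minus 5′ difference of the array's actin, GAPDH and hexokinase probe sets, a sign of RNA quality, had r of -0.26 to 0.15 with the 6 genes, and 0 of 18 passed. Without rats 2 and 10, the farthest from the median of the spike-in level, its r with the 6 genes was -0.66 to -0.27, and the part of that level in the results was not tested beyond its use as a covariate.

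Behaviour was then compared with the same genes in fits over all tested probe sets. For each of the 5 scores limma called 0 of 15521 probe sets, as did limma with trend and robust options, and of the 4 tested regulators 0 passed an unadjusted p of 0.05 on any score fitted alone. With the 4 scores of all 10 rats in 1 model, Dusp1 had -0.73 ± 0.25 on startle (limma p = 0.0216), -0.73 ± 0.30 on locomotion (limma p = 0.043), 1.01 ± 0.31 on sugar feeding (limma p = 0.0131) and 0.97 ± 0.27 on prepulse inhibition (limma p = 0.00764). Klf2 had 1.63 ± 0.66 on sugar feeding (limma p = 0.0421) and 1.86 ± 0.57 on prepulse inhibition (limma p = 0.0127), with -1.25 ± 0.54 on startle and -1.21 ± 0.64 on locomotion. These values passed no adjusted threshold (limma adjusted p = 0.53 to 1.00), and 0 probe sets were called in that model. In that model 321 of 15521 probe sets had a limma unadjusted p under 0.05 on startle and 519 on locomotion. On sugar feeding 666 did, and on prepulse inhibition 1121. Each slope in that model is for given values of the other scores, and 10 rats are few for 4 scores at once. Fitted alone, locomotion gave Dusp1 a slope of 0.09. With each score fitted alone, 5.59% of probe sets had an unadjusted p under 0.05 for startle, 2.93% for locomotion and 2.13% for sugar feeding. That share was 7.41% for prepulse inhibition and 6.95% for the plus maze. Slopes below are in log2 units for each SD of a score.

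With startle, Dusp6 had -0.05 ± 0.08 (SE, n = 10; limma p = 0.521, adjusted p = 0.907) and Dusp1 -0.14 ± 0.22, and slopes of the 4 genes ran from -0.14 to 0.01. With locomotion, Sik1 had 0.05 ± 0.05 (SE, n = 10; limma p = 0.363, adjusted p = 1.00) and Dusp6 0.05 ± 0.08, with slopes of 0.05 to 0.09 and 4 of 4 positive, where 65.4% of all tested probe sets were positive. These 4 signs come from the same rats and are not 4 separate results. With sugar feeding, Sik1 had 0.05 ± 0.05 (SE, n = 10; limma p = 0.307, adjusted p = 1.00) and Dusp6 0.05 ± 0.08, within a range of -0.0017 to 0.12.

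Prepulse inhibition, the reduction of startle by a weaker preceding sound, gave the largest slope, that of Klf2 at 0.55 ± 0.39 (SE, n = 10; limma p = 0.185, adjusted p = 0.786). Dusp1 had 0.17 ± 0.21, and 4 of 4 slopes were positive, against 41.3% of all tested probe sets. Among these 4 Sik1 was near 0, at 0.0013 ± 0.053. The 4 genes share the same rats, so their signs are not 4 separate results. Ier2, read from the fit over all probe sets, had 0.29 ± 0.18 (limma p = 0.144, adjusted p = 0.981), and in that fit the dim Klf2 probe set raised in rats 4 and 8 had 0.21 ± 0.09 (limma p = 0.047, adjusted p = 0.981). That Klf2 probe set was chosen after its value was seen. In the same fit 1516 of 31042 probe sets had a limma unadjusted p under 0.05. The rats highest for Klf2, rats 8, 3 and 4, had prepulse inhibition of 40.2, 18.4 and 42.5, the values of rats 4 and 8 being the 2 highest in a range of 6.80 to 42.5. Rat 5, with prepulse inhibition of 39.4, was among the low rats for Klf2, at 3.17 log2, while rat 9, with 37.4, had 5.03. With the plus maze score, measured in 7 rats, Dusp1 had -0.20 ± 0.25 (SE; limma p = 0.439, adjusted p = 1.00) and Klf2 -0.34 ± 0.52, and both turned positive without rat 5, at 0.11 and 0.34. The SEs of the Klf2 slopes were 0.39 to 0.52, against 0.05 for Sik1.

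**Figure D4:**
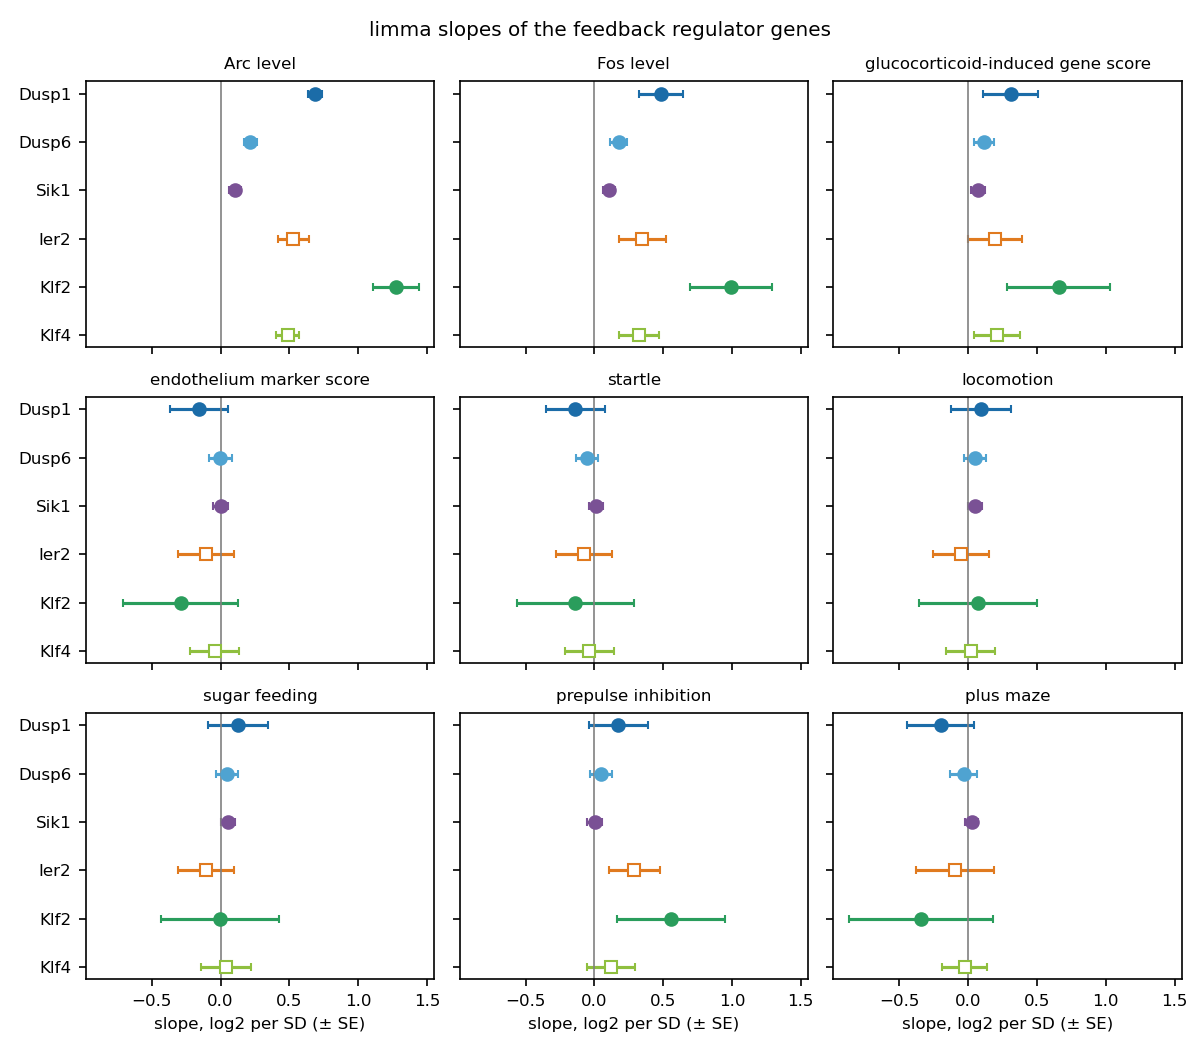
limma slopes with SE (horizontal axes, log2 per SD of the measure named above each panel) for the 6 genes (rows), from 10 rats, or 7 for the plus maze; filled circles are from the fit over tested probe sets and open squares, Ier2 and Klf4, from the fit over all probe sets. In the Arc panel the slopes run from 0.10 for Sik1 to 1.27 for Klf2, and in the 5 behaviour panels from -0.34 to 0.55.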

How the data were processed

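Prefrontal cortex RNA of 10 rats was hybridised to Affymetrix rat arrays, 1 per rat. The values deposited by the authors are log2 summaries per probe set, made with GCRMA under R 2.6.2 per the submitters' processing notes, with the GCRMA version not given in the sources used here. GCRMA is a background correction that uses probe sequence, and values near background are the least certain. Of 31042 probe sets that were not among the 57 controls, 20826 had 1 gene symbol, 436 several and 9780 none, and the gene numbers of 20758 matched RefSeq (GRCr8).

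The 50% of probe sets of highest mean (15521, mean log2 at least 3.99) entered linear models in limma 3.58.1 under R 4.3.3 (two-sided moderated tests, Benjamini-Hochberg over all tested probe sets) on each behaviour score and on Arc, Fos, and the mean of the endothelium or glucocorticoid-induced lists, each scaled to an SD of 1 in the rats fitted. Probe sets of the genes in a measure were left out of its fit. Correlations used the probe set of highest mean per gene and permutation tests with 100000 resamples (numpy 2.4.6), whose smallest p is 1e-05. The fit was tested on simulated data. Depth does not apply to arrays, so the number of arrays limits the precision. Each array is from a separate rat, so p-values rest on the spread between rats of 1 strain.

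Named genes were the 6 members, in each behaviour fit the 2 members of smallest p, the comparators, up to 3 genes of smallest p of each list described, and the 3 genes of highest r with each member. The members, lists and measures were chosen with earlier results of these data known. Alternatives changed the filter, normalisation, moderation, scale, covariates and rats.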

Additional observations from a re-analysis of the deposited data

Results flagged for a closer look

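Of 25 probe sets and scores examined for a rat far from the other 9, 3 had a gap at 1 end, as a share of the whole range, past Dixon's 95% critical value, where chance gives about 1 in 20. Sik1 was at 6.58 log2 in rat 3, with the next rat at 6.28. Fos was at 4.91 log2 in rat 10, with the next at 7.42. Egr1 was at 11.38 log2 in rat 10, with the next at 11.98. Ier2, at 5.16 in rat 8, lay just under that value with a gap of 0.46 of its range.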

How the results depend on the processing

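No paired analysis was possible because there is 1 group, with no second condition to pair. The count of probe sets called with Arc, 4, was 2 over all probe sets, 1 with ranks, 0 without rats 3 and 8, and 2 to 4 when single rats were left out (2 without rat 3, 6 or 8). That with the endothelium score, 1, was 12 with arrays centred on their medians, 0 over all probe sets, over the brightest 25%, after quantile normalization, with ranks, with either covariate and without rats 1 and 7, and 0 to 9 without single rats (9 without rat 1). That with the glucocorticoid-induced score, 0, was 1 with the striatal covariate. Counts for Fos and the 5 behaviours stayed at 0 in every alternative run. The pairs of members past the threshold, 9, were 5 by rho and 5 without the 2 farthest rats of each pair, and 6 to 11 without single rats.

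The Arc slope of Klf2 did not pass over all probe sets (adjusted p = 0.207), after quantile normalization (0.0661), with ranks (0.189), or with the spike-in (0.0985) or striatal (0.0707) covariate. It was not among the brightest 25%. With 4 scores in 1 model the prepulse inhibition slope of Klf2 was 1.86, against 0.55 alone, that of Dusp1 0.970, against 0.173, and the startle slope of Dusp1 -0.733, against -0.139; locomotion gave Dusp1 -0.73 and Klf2 -1.21, against 0.09 and 0.07. Slopes near 0 changed sign. The slope of Dusp6 on locomotion became -0.176 when all 4 scores were fitted together and ran from -0.0285 (without rat 4) to 0.140 when single rats were left out. On sugar feeding it ran from -0.0136 (without rat 3) to 0.101. On the plus maze Klf2 was 0.0223 with ranks and -0.522 to 0.342 without single rats, and Dusp1 -0.283 to 0.114, both highest without rat 5. Dusp6 on the endothelium score was 0.0468 with arrays centred on their medians, 0.0105 with ranks, 0.0334 without rats 1 and 7, and -0.0636 to 0.0786 without single rats. Sik1 on that score was -0.00421 after quantile normalization, -0.00451 and -0.0079 with the spike-in and striatal covariates, and -0.00679 to 0.0130 without single rats. Dusp6 and Sik1 correlated at -0.002 without rats 3 and 4. The causes were not tested. Low signal limits what Ier2 and Klf4, under the filter level, and the low end of Klf2 can show.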
